A study of Mus musculus with 12 samples.

Results

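The necroptosis and pyroptosis genes described here are 10 genes of regulated lytic cell death, taken as the rows of the mouse kidney count table whose gene symbol is Ripk1, Ripk3, Mlkl, Zbp1, Casp8, Nlrp3, Pycard, Casp1, Casp4 or Gsdmd. Each symbol matched a single row, so the members are 10 of 42748 genes in the table, and all 10 had enough counts to be among the 19218 genes tested. Total RNA of adult mouse kidneys was sequenced in 12 libraries, 3 for each of 4 groups. The groups were Ybx3 knockout (KO) kidneys after experimental ischemia/reperfusion injury (IRI), KO control kidneys, wild-type (WT) kidneys after IRI, and WT control kidneys. Ybx3 encodes the cold shock domain protein DbpA, which binds DNA and RNA. Neither the sex of the animals nor how long after injury the kidneys were taken is given in the sources used here. IRI interrupts renal blood flow and then restores it, and the study asked what DbpA does in this injury.

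Necroptosis and pyroptosis are forms of programmed cell death that end in rupture of the plasma membrane. In necroptosis the kinases RIPK1 and RIPK3, or the nucleic acid sensor ZBP1 with RIPK3, lead to phosphorylation of the pseudokinase MLKL, which then permeabilizes the membrane; caspase-8 cleaves the RIP kinases and holds this route in check. In pyroptosis a sensor such as NLRP3 gathers the adaptor ASC, the product of Pycard, and pro-caspase-1 into an inflammasome, while caspase-11, the product of mouse Casp4, responds to cytosolic lipopolysaccharide. Both caspases cut gasdermin D, the product of Gsdmd, whose amino-terminal fragment forms the membrane pores. Transcript levels do not report phosphorylation, cleavage or death itself.

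After IRI, transcripts of the necroptosis kinase Ripk3 and its target Mlkl were higher in both genotypes. The necroptosis members Ripk1 and Zbp1 and the 5 pyroptosis members (Nlrp3, Pycard, Casp1, Casp4 and Gsdmd) were called in neither. Over all tested genes, 6.32% were called in KO and 22.5% in WT. In some alternative fits Casp4 passed in either genotype, Gsdmd in KO and Ripk1 in WT. Ripk3 was 2.19-fold higher in KO kidneys after IRI than in KO controls and 2.70-fold higher in WT kidneys after IRI than in WT controls. Mlkl was 2.38-fold higher in KO and 3.29-fold higher in WT. Casp8 was 2.59-fold higher in WT and, at 1.36-fold in KO, did not pass the test there. The KO calls were lost without any of several single libraries, all 3 WT calls were lost with the summed Y-linked level as a covariate, and the Casp8 call was also lost with the WT groups fitted alone. No member was called between KO and WT, in control or injured kidneys, and no member's response to IRI was called different between the genotypes.

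Library totals ran from 39074224 counts in KO IRI replicate 3 to 67948710 in KO control replicate 2, and levels are CPM, counts scaled to a library size corrected by TMM (the trimmed mean of M-values). As a check of the labels, Ybx3 read 13.6, 15.6 and 18.6 CPM in KO IRI libraries, 12.9, 9.28 and 9.48 in KO controls, 81.1, 53.9 and 104.5 in WT IRI and 36.9, 33.0 and 30.2 in WT controls. Havcr1, the tubular injury marker KIM-1, was between 204 and 463 CPM in KO IRI against 0.859 to 1.57 in KO controls, and between 358 and 769 in WT IRI against 1.12 to 1.46 in WT controls. Summed neutrophil marker levels were 4.47 to 7.44 CPM in KO IRI, 1.27 to 1.52 in KO controls, 5.87 to 32.6 in WT IRI and 1.20 to 1.33 in WT controls. Of all tested genes, 3.9% were called higher and 2.42% lower after IRI in KO, and 13.1% higher and 9.41% lower in WT. Of the 7 tested neutrophil markers, 2 were called higher after IRI in KO and 7 in WT. In KO, 6 of the 7 had an unadjusted p under 0.05 by edgeR, all with higher estimates after IRI, beside 22.9% of all tested genes in either direction. Summed macrophage and monocyte marker levels were 89.6 to 101.1 CPM in KO IRI, 88.7 to 100.9 in KO controls, 109.3 to 213.9 in WT IRI and 107.9 to 114.3 in WT controls. Of these 12 markers, 3 were called higher and 1 lower in KO, and 4 higher and 1 lower in WT. Summed kidney epithelial markers were 5424 to 9776 CPM in KO IRI against 13291 to 15061 in KO controls, and 4568 to 9639 in WT IRI against 14945 to 17072 in WT controls. Of these 9 markers, 2 were called lower in KO and 6 in WT, with 0 higher in either. In KO the log2 estimates of Umod (0.25), Aqp2 (0.27) and Nphs1 (0.14) were above 0 and the others below. In WT all were below 0. Summed lymphocyte markers were 1.69 to 1.82 CPM in KO IRI against 2.15 to 3.86 in KO controls, and 1.16 to 1.83 in WT IRI against 3.08 to 3.61 in WT controls. Of the 5 tested, 0 were called in KO and 3 were called lower in WT. The B cell marker Ms4a1 was at 0 in all 12 libraries, while Cd79a of the same list had 12 to 64 counts. KO IRI replicates 1 and 2 stood apart by their summed adrenal marker levels of 272 and 1397 CPM, against 5.15 to 7.49 in the other 10 libraries. Summed Y-linked gene levels were 45.2, 227 and 1.26 CPM in KO IRI, 1.18, 249 and 261 in KO controls, 207, 33.2 and 307 in WT IRI and 1.14, 1.79 and 1.54 in WT controls, so in WT the Y-linked level and IRI cannot be told apart. For both the adrenal and the Y-linked sum, KO IRI replicate 1 lay between replicates 2 and 3. Whether KO IRI replicates 1 and 2 are independent samples was not tested. In bulk kidney RNA, a change in the number of cells that carry a transcript and a change in RNA per cell cannot be told apart. The part of immune cells, adrenal tissue and the Y-linked level in the member results was not tested beyond the fits given beside them.

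Promoter sequences are shown for the members that were called after IRI (Ripk3, Mlkl and Casp8) and for those whose promoter held a match to a searched motif (Casp4 and Ripk1). RefSeq on GRCm38.p6 gave a promoter, 250 bases before to 50 bases after a transcript start, for 8 of the 10 members and 11 promoters in all; Zbp1 and Gsdmd had no entry. Each sequence runs 5′ to 3′ on the gene's strand, in lower case, with motif matches in capitals. The Ripk3 promoter is at chr14:55788808-55789107 on the minus strand, that of Mlkl at chr8:111338156-111338455 on the minus strand, that of Casp8 at chr1:58802252-58802551 on the plus strand and within its GENCODE gene model, that of Casp4 at chr9:5308599-5308898 on the plus strand, and the second of the 2 promoters of Ripk1 at chr13:34002624-34002923 on the plus strand.
Ripk3: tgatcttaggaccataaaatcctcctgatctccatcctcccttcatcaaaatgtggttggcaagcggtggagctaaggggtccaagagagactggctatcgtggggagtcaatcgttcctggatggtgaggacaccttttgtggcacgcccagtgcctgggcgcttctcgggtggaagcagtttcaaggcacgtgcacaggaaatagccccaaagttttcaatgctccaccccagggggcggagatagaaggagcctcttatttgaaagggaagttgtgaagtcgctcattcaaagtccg
Mlkl: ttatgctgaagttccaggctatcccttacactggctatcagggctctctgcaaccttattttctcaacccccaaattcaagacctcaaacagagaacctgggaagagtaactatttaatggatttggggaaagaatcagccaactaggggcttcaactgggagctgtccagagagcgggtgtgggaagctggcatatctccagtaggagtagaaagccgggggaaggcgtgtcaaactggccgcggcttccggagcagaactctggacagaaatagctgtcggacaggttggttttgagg
Casp8: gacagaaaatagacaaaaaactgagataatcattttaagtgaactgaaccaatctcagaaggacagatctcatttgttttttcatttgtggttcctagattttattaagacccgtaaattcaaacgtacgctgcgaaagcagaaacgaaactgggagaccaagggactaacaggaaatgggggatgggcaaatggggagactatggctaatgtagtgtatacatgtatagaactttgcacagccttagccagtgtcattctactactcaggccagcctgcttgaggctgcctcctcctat
Casp4: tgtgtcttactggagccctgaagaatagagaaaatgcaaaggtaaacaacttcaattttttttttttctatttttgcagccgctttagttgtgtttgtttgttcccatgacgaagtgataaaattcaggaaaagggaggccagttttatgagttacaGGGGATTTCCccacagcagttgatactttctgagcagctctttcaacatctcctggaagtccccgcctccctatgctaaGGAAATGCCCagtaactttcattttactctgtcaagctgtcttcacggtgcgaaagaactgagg
Ripk1: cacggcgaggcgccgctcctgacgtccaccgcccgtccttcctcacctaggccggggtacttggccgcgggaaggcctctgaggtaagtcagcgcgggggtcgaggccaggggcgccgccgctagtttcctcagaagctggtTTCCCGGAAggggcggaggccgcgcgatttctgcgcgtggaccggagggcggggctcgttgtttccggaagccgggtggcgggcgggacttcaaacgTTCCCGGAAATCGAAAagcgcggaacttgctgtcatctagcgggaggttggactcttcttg

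Searched on both strands were the interferon-stimulated response element (GAAA, any 2 bases, GAAA), the STAT gamma-activated site TTCNNNGAA, the NF-kB motif (GGG, any 2 bases, TTTCC) and the AP-1 motif TGANTCA. Of all 32851 promoters of the same length, 3.44% held the interferon element, 8.3% the STAT site, 1.63% the NF-kB motif and 7.81% the AP-1 motif. The promoters of Ripk3, Mlkl and Casp8 held none of the 4, nor did those of Casp1, Nlrp3 and Pycard. Casp4 held the NF-kB motif at 2 places, GGGGATTTCC on its own strand and GGAAATGCCC as the match on the other strand; its second listed promoter overlaps the first and holds the same 2. Ripk1 held TTCCCGGAA at 2 places and GAAATCGAAA at 1, the second STAT match overlapping the interferon element, in its second promoter only. With shares of 1.63% to 8.3% per motif over all promoters, a window without a match is the usual case. The absence of matches for the 3 members called after IRI thus says little about them.

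Ripk3, the kinase that phosphorylates MLKL (ENSMUSG00000022221, chr14:55784995-55788865, minus strand), was a low transcript with 34 to 109 counts per library. It was measured at 1.51, 1.56 and 1.56 CPM in KO IRI kidneys against 0.767, 0.568 and 0.775 CPM in KO controls, and at 2.13, 1.60 and 2.32 CPM in WT IRI kidneys against 0.893, 0.693 and 0.655 CPM in WT controls. Every injured kidney was above every control kidney of its genotype, and the injured KO libraries lay close together. The log2 fold change was 1.13 ± 0.22 in KO (SE, 95% interval 0.65 to 1.61, adjusted p = 0.0164) and 1.43 ± 0.22 in WT (0.95 to 1.92, adjusted p = 0.00331), n = 3 per group. In KO the call was lost without KO IRI replicate 2 or 3 or KO control replicate 2 or 3 (adjusted p = 0.0587 to 0.0844). Without the 2 libraries with adrenal transcripts, which leaves 1 KO IRI library assumed to vary like the other groups, the log2 fold change was 1.12 (adjusted p = 0.238). In WT it was lost with the summed Y-linked level as a covariate (1.45, adjusted p = 0.0517). Among KO libraries of high Y-linked level, Ripk3 was 1.56 CPM in IRI replicate 2 against 0.568 and 0.775 CPM in control replicates 2 and 3. Among those of low level it was 1.56 CPM in IRI replicate 3 against 0.767 CPM in control replicate 1. KO IRI replicate 1, at 1.51 CPM, had a Y-linked level between these (45.2 CPM). Each level thus held 1 IRI library, and the one at high level carried adrenal transcripts. The part of the Y-linked level in KO was not tested by these values.

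Mlkl, the executioner of necroptosis (ENSMUSG00000012519, chr8:111311797-111338177, minus strand), had 5.59, 8.24 and 6.31 CPM in KO IRI kidneys against 2.82, 3.42 and 2.23 CPM in KO controls. In WT it had 9.10, 5.31 and 15.4 CPM after IRI against 3.39, 2.67 and 2.99 CPM in controls. All injured kidneys again exceeded all controls of their genotype, and WT IRI replicate 3 carried the highest level. The log2 fold change was 1.25 ± 0.33 in KO (95% interval 0.52 to 1.98, adjusted p = 0.04996) and 1.72 ± 0.34 in WT (0.98 to 2.46, adjusted p = 0.00772). The KO value sat at the threshold of 0.05 and crossed it in 17 of the 22 alternative fits, 10 of which left out 1 library, among them every KO library, every WT control library and WT IRI replicate 1 (adjusted p = 0.0621 to 0.195); without the libraries with adrenal transcripts, and so with 1 KO IRI library, it was 1.14 (adjusted p = 0.406). The WT call was lost with the Y-linked covariate (1.41, adjusted p = 0.139). At high Y-linked level Mlkl was 8.24 CPM in KO IRI replicate 2 against 3.42 and 2.23 CPM in KO control replicates 2 and 3. At low level it was 6.31 CPM in KO IRI replicate 3 against 2.82 CPM in KO control replicate 1. KO IRI replicate 1, of intermediate Y-linked level, had 5.59 CPM. With 1 IRI library per level, the part of the Y-linked level was not tested by these values.

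Casp8, the initiator caspase that restrains necroptosis (ENSMUSG00000026029, chr1:58795374-58847503, plus strand), was the most abundant member. It reached 46.6, 56.5 and 52.4 CPM in KO IRI kidneys against 35.6, 39.3 and 39.7 CPM in KO controls. In WT it reached 75.9, 51.7 and 131 CPM after IRI against 33.4, 33.9 and 32.4 CPM in controls. The groups did not overlap in either genotype, but the injured WT kidneys were spread widely, with replicate 3 far above replicate 2. Casp8 rose in WT (log2 fold change 1.37 ± 0.26, 95% interval 0.81 to 1.94, adjusted p = 0.00655). In KO the change of 0.44 ± 0.25 did not pass (-0.11 to 0.996, adjusted p = 0.336); with KO IRI and KO control libraries fitted alone it did (0.42, adjusted p = 0.0459), as it did without WT IRI replicate 3 (adjusted p = 0.0488). The WT call was lost when the groups compared were fitted alone (1.36, adjusted p = 0.0505) and with the Y-linked covariate (1.11, adjusted p = 0.129).

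Ripk1, the kinase downstream of the TNF receptor (ENSMUSG00000021408, chr13:34002363-34037147, plus strand), was the second most abundant member and was not called. It read 29.1, 31.0 and 30.4 CPM in KO IRI kidneys against 27.2, 29.5 and 32.7 CPM in KO controls, a log2 fold change of 0.02 ± 0.24 (95% interval -0.52 to 0.55, adjusted p = 0.979). In WT it read 33.1, 27.6 and 63.5 CPM after IRI against 26.5, 26.8 and 27.6 CPM in controls, a log2 fold change of 0.62 ± 0.24 (0.082 to 1.15, adjusted p = 0.0866). Only WT IRI replicate 3 stood clear of the other 11 libraries. Without WT IRI replicate 2 the WT change passed (0.84, adjusted p = 0.0119). Ripk1 shares 241 exon bases with Serpinb6a on the opposite strand and 511 with the pseudogene Gm17084 on its own strand; the strand setting of the counting was not given, so reads of these stretches may be split.

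Zbp1, which senses Z-form nucleic acids and can engage RIPK3 (ENSMUSG00000027514, chr2:173206612-173218923, minus strand), had 2.05, 2.61 and 2.57 CPM in KO IRI kidneys against 1.30, 1.96 and 1.25 CPM in KO controls. In WT it had 1.85, 2.39 and 3.09 CPM after IRI against 1.71, 1.72 and 1.72 CPM in controls. The injured kidneys were above the controls in both genotypes without passing the test, with log2 fold changes of 0.68 ± 0.24 in KO (adjusted p = 0.116) and 0.51 ± 0.24 in WT (adjusted p = 0.138).

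**Figure D1:**
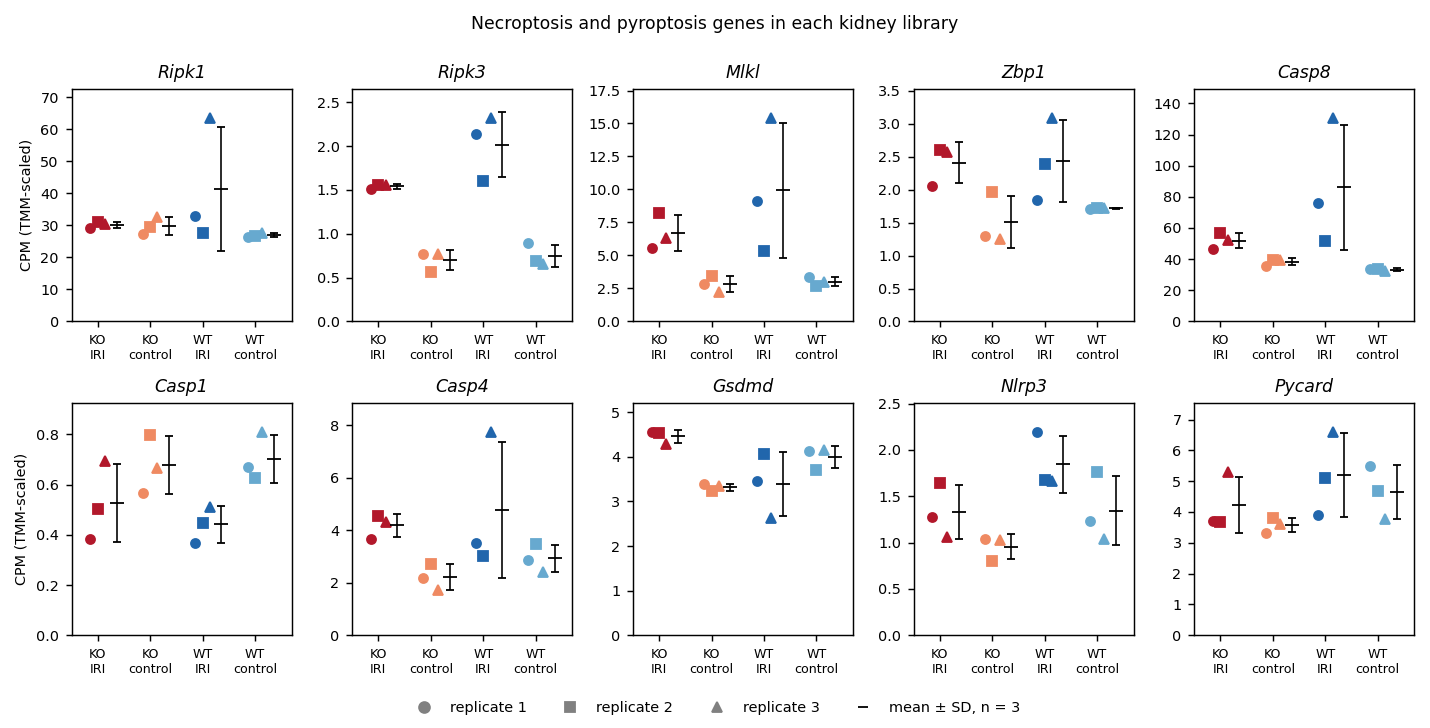
Level of each necroptosis and pyroptosis gene in each of the 12 kidney libraries in CPM, with KO IRI, KO control, WT IRI and WT control from left to right; symbols are libraries and bars are group means ± SD (n = 3). Ripk3 and Mlkl lie above their controls after IRI in both genotypes, while Casp1 does not, and WT IRI replicate 3 is the highest library for 7 of the 10 genes.

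On the pyroptosis side, Nlrp3, the inflammasome sensor (ENSMUSG00000032691, chr11:59541568-59566956, plus strand), had 1.28, 1.64 and 1.06 CPM in KO IRI kidneys against 1.04, 0.798 and 1.03 CPM in KO controls. In WT it had 2.19, 1.68 and 1.66 CPM after IRI against 1.24, 1.76 and 1.04 CPM in controls. The KO groups were separated by a narrow margin and the WT groups overlapped. Neither change passed, at 0.48 ± 0.26 on the log2 scale in KO (adjusted p = 0.298) and 0.45 ± 0.25 in WT (adjusted p = 0.209). Pycard, the adaptor between NLRP3 and caspase-1 (ENSMUSG00000030793, chr7:127989708-127993867, minus strand), had 3.70, 3.69 and 5.29 CPM in KO IRI kidneys against 3.33, 3.81 and 3.61 CPM in KO controls, and 3.90, 5.11 and 6.60 CPM in WT IRI against 5.50, 4.68 and 3.76 CPM in WT controls. Its groups overlapped in both genotypes, and its log2 fold changes of 0.24 ± 0.23 in KO (adjusted p = 0.601) and 0.16 ± 0.23 in WT (adjusted p = 0.621) did not pass. It shares 485 exon bases with Gm45205 on the opposite strand.

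Casp1, the inflammasome protease that matures interleukin-1β and interleukin-18 (ENSMUSG00000025888, chr9:5298517-5307265, plus strand), was the scarcest member at 18 to 52 counts per library. It read 0.385, 0.504 and 0.693 CPM in KO IRI kidneys against 0.567, 0.798 and 0.664 CPM in KO controls, and 0.366, 0.447 and 0.511 CPM in WT IRI against 0.670, 0.625 and 0.810 CPM in WT controls. It was the sole member whose point estimate was below 0 in both genotypes. The log2 fold changes of -0.38 ± 0.27 in KO (adjusted p = 0.454) and -0.67 ± 0.27 in WT (95% interval -1.27 to -0.063, adjusted p = 0.0984) did not pass, although the WT groups did not overlap.

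Casp4, the mouse caspase-11 gene (ENSMUSG00000033538, chr9:5308828-5336783, plus strand), begins 1562 bases after Casp1 ends, on the same strand. Its levels were 3.68, 4.55 and 4.33 CPM in KO IRI kidneys against 2.18, 2.72 and 1.72 CPM in KO controls, and 3.51, 3.04 and 7.75 CPM in WT IRI against 2.88, 3.46 and 2.43 CPM in WT controls. The neighbours thus had point estimates of opposite sign, Casp4 being higher in all injured KO kidneys than in KO controls. Its log2 fold changes were 0.92 ± 0.33 in KO (95% interval 0.20 to 1.65, adjusted p = 0.121) and 0.70 ± 0.33 in WT (-0.019 to 1.42, adjusted p = 0.137). Casp4 passed in KO without WT IRI replicate 3 (adjusted p = 0.0167) and with the KO groups fitted alone (0.90, adjusted p = 0.0457), and in WT without WT IRI replicate 2 (0.94, adjusted p = 0.0395).

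Gsdmd, the pore-forming effector (ENSMUSG00000022575, chr15:75862327-75867408, plus strand), had 4.56, 4.53 and 4.28 CPM in KO IRI kidneys against 3.39, 3.24 and 3.34 CPM in KO controls. In WT it had 3.45, 4.06 and 2.64 CPM after IRI against 4.12, 3.72 and 4.14 CPM in controls. The KO groups were tight and apart, with the injured kidneys higher, and the WT groups overlapped. The log2 fold change was 0.42 ± 0.16 in KO (95% interval 0.064 to 0.79, adjusted p = 0.150) and -0.24 ± 0.16 in WT (-0.60 to 0.13, adjusted p = 0.307). The KO change passed without WT IRI replicate 3 (adjusted p = 0.0333).

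**Figure D2:**
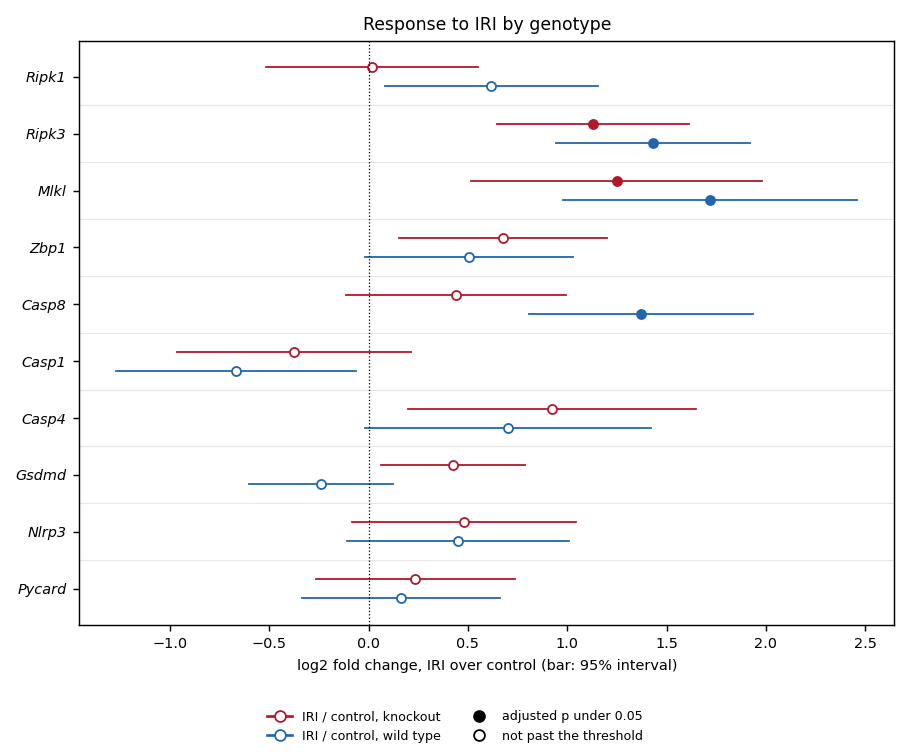
Log2 fold change of IRI over control for the 10 genes, KO above WT for each gene, with 95% intervals; filled points are called at an adjusted p under 0.05. Ripk3 and Mlkl are called in both genotypes and Casp8 in WT, and the estimates of Casp1 lie below 0.

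Over the 10 genes, 2 were called higher and 0 lower after IRI in KO, where 3.9% of all tested genes were called higher, 2.42% lower and 6.32% in either direction. In WT, 3 were called higher and 0 lower, where 13.1% of all tested genes were called higher, 9.41% lower and 22.5% in either direction. The median log2 fold change of the members was 0.46 in KO and 0.56 in WT, beside 0.02 over all tested genes in each. Injured and control libraries did not overlap, with the injured higher, for 7 members in KO and 4 in WT, where 21.2% of tested genes did so in each; with the injured lower they did not overlap for 0 members in KO (15.0% of tested genes) and 1 in WT (19.9%). WT IRI replicate 3 gave the highest of the 12 levels for 7 members (Ripk1, Ripk3, Mlkl, Zbp1, Casp8, Casp4 and Pycard), where 27.7% of tested genes were highest in that library. It was also the library with the highest summed neutrophil (32.6 CPM) and macrophage and monocyte (213.9 CPM) marker levels. Of the macrophage and monocyte markers, Cd14 (4941 counts), Itgam (1118) and Mrc1 (632) had their highest counts of the 12 libraries there. Adgre1 (193 counts), Lyz2 (149), Ccr2 (70) and C1qa (162) had their lowest there. The part of these in the member levels was not tested. Leaving it out, all 3 WT calls were kept.

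In control kidneys, no member was called between KO and WT, where 0.0104% of tested genes (2 genes) were called. Ybx3 itself was not among them (log2 fold change -1.66 ± 0.23, adjusted p = 0.0784). No member had an unadjusted p under 0.05, and DESeq2 and limma-voom also called 0. The largest estimates were -0.49 ± 0.26 for Nlrp3 (95% interval -1.06 to 0.070), -0.41 ± 0.33 for Casp4 (-1.13 to 0.32) and -0.38 ± 0.23 for Pycard (-0.88 to 0.12), all on the log2 scale and all with an adjusted p of at least 0.973. Ripk3 (-0.09 ± 0.22) and Mlkl (-0.09 ± 0.33) were close to 0, with intervals of -0.58 to 0.41 and -0.82 to 0.64. Casp8 was higher in all KO controls (35.6 to 39.7 CPM) than in all WT controls (32.4 to 33.9 CPM), and Gsdmd lower (3.24 to 3.39 CPM against 3.72 to 4.14 CPM); 6.34% and 10.1% of tested genes were separated in these directions.

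After IRI, no member was called between KO and WT either, where again 0.0104% of tested genes (2 genes, Ybx3 and Hist4h4) were called. DESeq2 and limma-voom called 0, and 2 of 10 members had an unadjusted p under 0.05, beside 11.5% of all tested genes. These were Casp8, which averaged 51.9 ± 4.99 CPM in KO IRI and 86.0 ± 40.4 CPM in WT IRI (SD, n = 3 each), and Gsdmd, which averaged 4.46 ± 0.155 CPM in KO IRI and 3.39 ± 0.715 CPM in WT IRI. The log2 fold change of KO over WT was -0.73 ± 0.25 for Casp8 (95% interval -1.29 to -0.17, adjusted p = 0.422) and 0.40 ± 0.16 for Gsdmd (0.034 to 0.76, adjusted p = 0.424). The Gsdmd libraries did not overlap (6.28% of tested genes were separated with KO higher). The Casp8 libraries did, and Casp8 passed without WT IRI replicate 2 (-0.99, adjusted p = 0.0397).

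Ripk3 was lower in all KO IRI libraries than in all WT IRI libraries (1.51 to 1.56 CPM against 1.60 to 2.32 CPM), with a log2 fold change of -0.39 ± 0.21 (95% interval -0.86 to 0.080, adjusted p = 0.462). Nlrp3 was likewise separated (1.06 to 1.64 CPM in KO IRI against 1.66 to 2.19 CPM in WT IRI) at -0.47 ± 0.25 (-1.02 to 0.092, adjusted p = 0.461), and 5.95% of all tested genes were separated in this direction. Mlkl differed by -0.56 ± 0.33 (-1.28 to 0.15, adjusted p = 0.467) with overlapping libraries. Of the 10 estimates, 8 were below 0, with a median of -0.35 beside -0.01 over all tested genes.

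The response to IRI was compared between the genotypes by the interaction, the log2 change in KO minus that in WT. No member was called and 0.0% of tested genes were called by edgeR; 2 of 10 members had an unadjusted p under 0.05, beside 7.02% of all tested genes, and DESeq2 and limma-voom called 0 members. Gsdmd had an interaction of 0.66 ± 0.23 (95% interval 0.15 to 1.17, unadjusted p = 0.0158, adjusted p = 0.666), from 0.42 in KO and -0.24 in WT. Casp8 had -0.93 ± 0.36 (-1.72 to -0.15, unadjusted p = 0.0242, adjusted p = 0.666), from 0.44 in KO and 1.37 in WT. Ripk3 had -0.30 (-0.98 to 0.38) and Mlkl had -0.47 (-1.49 to 0.55), intervals that take in equal responses as well as KO responses smaller or larger than those in WT.

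**Figure D3:**
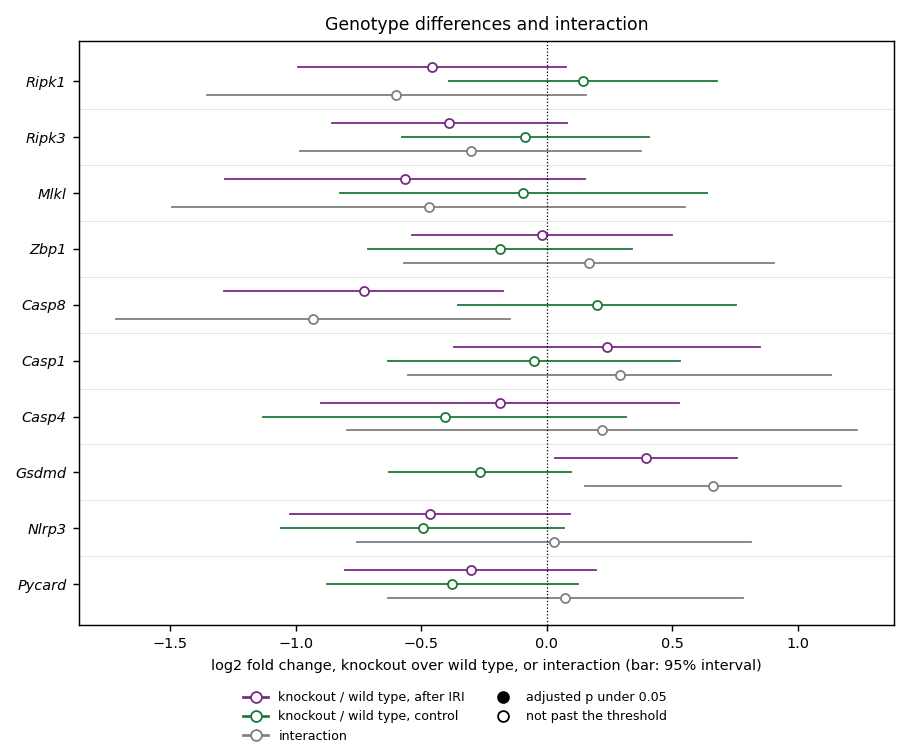
Log2 fold change of KO over WT for the 10 genes in injured and in control kidneys, and the interaction, with 95% intervals; open points are not called. No gene is called in any of the 3, and Casp8 (-0.73 after IRI, -0.93 for the interaction) and Gsdmd (0.40 and 0.66) have intervals that do not include 0.

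Per kilobase of principal transcript, Casp8 was the most abundant member in every group, at 20.1 ± 1.93 CPM per kb in KO IRI, 14.8 ± 0.871 in KO controls, 33.3 ± 15.6 in WT IRI and 12.9 ± 0.295 in WT controls (SD, n = 3 each). Ripk1 followed in every group, at 4.66 CPM per kb in KO IRI, 4.60 in KO controls, 6.39 in WT IRI and 4.16 in WT controls. Mlkl was at rank 3 in both injured groups (3.40 CPM per kb in KO and 5.03 in WT) and at rank 5 in both control groups (1.43 in KO and 1.53 in WT), where Gsdmd was at rank 3. Ripk3 was at rank 8 in both injured groups and at rank 9 in both control groups. Casp1 and Nlrp3 held the last 2 places after IRI, and Nlrp3 the last place in controls. The libraries of Casp1 and Ripk3 overlapped in both control groups, and those of Ripk3 and Nlrp3 in WT controls. The rank of Ripk3 in controls is thus not resolved, nor is the last place in WT controls. In KO IRI the libraries of Mlkl overlapped those of the next gene, Casp4; in WT IRI all neighbours from Ripk1 down to Ripk3 overlapped, so their order is not resolved there. In both control groups the libraries of Gsdmd overlapped those of Casp4 and those of Casp4 overlapped those of Mlkl, so the rank of Casp4 between them is not resolved in controls either. The libraries of Mlkl also overlapped those of the next gene, Pycard, in WT controls. Over the union of exons of all transcripts in place of the principal transcript, Casp8 and Ripk1 kept the first places, Mlkl was at rank 3 in both injured groups and rank 4 in both control groups, above Casp4 at rank 6, and Ripk3 was at rank 8 in KO IRI, 9 in KO controls, 7 in WT IRI and 10 in WT controls.

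**Figure D4:**
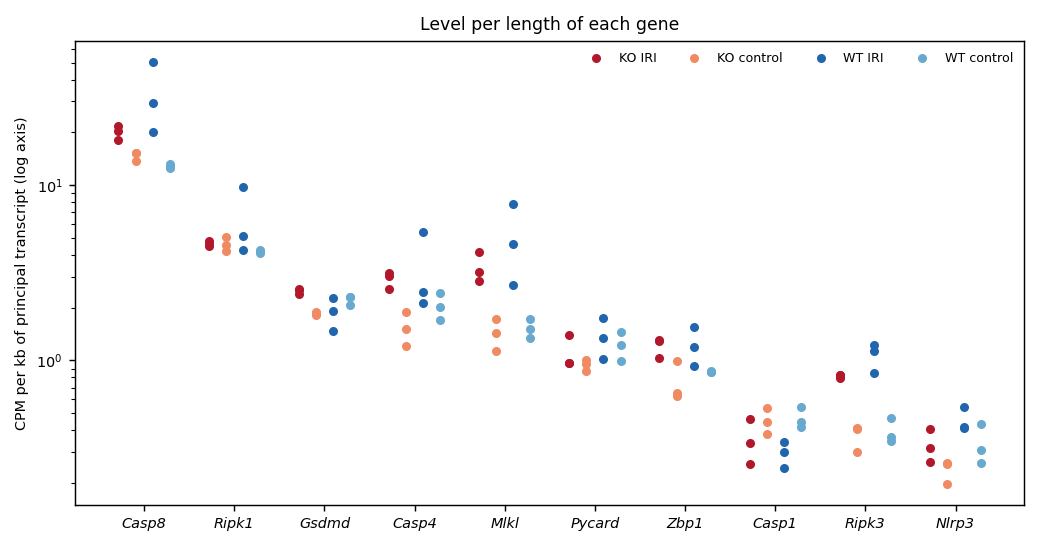
Level of each member per kilobase of principal transcript in the 4 groups (log axis, CPM per kb; points are libraries). Casp8 is highest in every group, and in controls the libraries of Casp4 overlap those of both Gsdmd and Mlkl.

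Changes in the pathway genes below are log2 fold changes of IRI over control ± SE. For every list count below, the shares over all tested genes in KO were 3.9% called higher and 2.42% lower. In WT they were 13.1% higher and 9.41% lower. The list counts were not tested against these shares. The upstream control of necroptosis runs through TNF receptor signalling, ubiquitin ligases and deubiquitinases. Of 22 tested genes of this list, 3 were called higher and 0 lower after IRI in KO, and 6 higher and 0 lower in WT, with a median log2 fold change of 0.17 in KO and 0.36 in WT. Tnfrsf1a, the TNF receptor upstream of RIPK1, had 60.6, 105.8 and 75.8 CPM in KO IRI kidneys against 40.4, 37.4 and 35.1 CPM in KO controls, and 108.7, 71.9 and 117.1 CPM in WT IRI against 43.7, 40.7 and 40.4 CPM in WT controls. It rose in both genotypes, by 1.10 ± 0.21 in KO (adjusted p = 0.0150) and 1.25 ± 0.21 in WT (adjusted p = 0.0044). In WT, Tnfaip3, the ubiquitin-editing protein A20, rose by 1.63 ± 0.42 log2 units (adjusted p = 0.0209) and Birc3, the ubiquitin ligase cIAP2, by 1.21 ± 0.30 (adjusted p = 0.0181). In KO their estimates were 0.81 (adjusted p = 0.269) and 0.76 (adjusted p = 0.156). Traf2, an adaptor of the receptor complex, rose by 0.65 ± 0.14 log2 units in KO (adjusted p = 0.0234), and Rnf31, the catalytic subunit of the linear ubiquitin ligase, by 0.38 ± 0.09 (adjusted p = 0.0317). Fadd and Cflar, the partners of caspase-8, were not called in either genotype (Cflar -0.05 in KO and 0.44 in WT). Leaving out KO IRI replicate 2 or KO control replicate 2 or 3 ended the KO calls of Tnfrsf1a (adjusted p = 0.0655 to 0.0795), Traf2 (0.0773 to 0.130, also without KO IRI replicate 3) and Rnf31 (0.0512 to 0.176, also without KO IRI replicate 3, WT IRI replicate 1 or WT control replicate 2 or 3). In WT, Tnfaip3 was lost without WT control replicate 2 or 3 (0.0756 to 0.0795) and Birc3 without any WT control (0.0557 to 0.0691), while Tnfrsf1a was lost only with the Y-linked covariate (0.0846).

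Of 14 tested inflammasome sensors and activators, 1 was called higher and 0 lower in KO, and 1 higher and 1 lower in WT, with a median log2 fold change of -0.06 in KO and 0.03 in WT. Panx1, a channel for ATP release, rose by 0.66 ± 0.17 log2 units in KO (adjusted p = 0.0431) and 0.69 ± 0.17 in WT (adjusted p = 0.0171). Nlrp6, a sensor of the NLR family, fell to 13.3, 36.5 and 6.83 CPM in WT IRI kidneys against 56.5, 68.5 and 66.0 CPM in WT controls, a log2 change of -1.75 ± 0.55 (adjusted p = 0.0414). Its levels in KO were 43.8, 12.8 and 26.2 CPM after IRI against 69.1, 90.7 and 99.5 CPM in controls (-1.65 ± 0.54, adjusted p = 0.0975). The summed kidney epithelial markers were lower in the same injured groups, and their part in the Nlrp6 result was not tested. The Nlrp6 call was lost in 8 of the 12 fits that left out 1 library, those of KO IRI replicate 3, KO control replicates 2 and 3, WT IRI replicates 1 and 3 and every WT control (adjusted p = 0.0572 to 0.123). The Panx1 call was lost in 10 such fits in KO, all but those of WT IRI replicates 2 and 3 (0.0548 to 0.179), and in WT without WT IRI replicate 1 or WT control replicate 2 or 3 (0.0588 to 0.0708).

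Of 9 tested pyroptosis effectors and substrates, 1 was called higher and 0 lower in KO, and 0 higher and 1 lower in WT, with a median log2 fold change of -0.12 in KO and 0.23 in WT. Casp12, an inflammatory caspase, rose by 1.06 ± 0.23 log2 units in KO (adjusted p = 0.0237), where it had 5.14, 8.05 and 4.28 CPM after IRI against 3.02, 2.79 and 2.59 CPM in controls. In WT it was not called (0.08 ± 0.23, adjusted p = 0.823). Casp6, which encodes an effector caspase, fell in WT by 0.42 ± 0.11 on the log2 scale (adjusted p = 0.0220). The cytokine substrates were not called. Il1b changed by 0.70 ± 0.34 in KO (adjusted p = 0.256) and 0.82 ± 0.34 in WT (adjusted p = 0.1003), and Il18 by -0.45 ± 0.31 in KO and 0.24 ± 0.32 in WT. The Casp12 call was lost without KO IRI replicate 2 or KO control replicate 2 or 3 (adjusted p = 0.097 to 0.104) and the Casp6 call without WT IRI replicate 1 or any WT control (0.0511 to 0.0847).

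Of 9 tested inhibitors of inflammasomes and their cytokines, 2 were called higher in KO and 4 in WT, with 0 lower in either and a median log2 fold change of 0.36 in KO and 0.49 in WT. Il1rn, the interleukin-1 receptor antagonist, had 1.06, 1.44 and 2.42 CPM in KO IRI kidneys against 0.0767, 0.0767 and 0.0949 CPM in KO controls, and 1.67, 1.73 and 3.21 CPM in WT IRI against 0.122, 0.101 and 0.0964 CPM in WT controls. It rose by 4.26 ± 0.42 log2 units in KO (adjusted p = 0.000982) and 4.35 ± 0.42 in WT (adjusted p = 0.000608), and both calls held in all alternative fits. The decoy receptor Il1r2, which is also in the neutrophil marker list, rose in WT by 3.73 ± 0.70 (adjusted p = 0.00668) and had 0.94 ± 0.68 in KO (adjusted p = 0.458). Card19, a CARD protein of mitochondria, rose by 0.76 ± 0.16 log2 units in KO (adjusted p = 0.0213) and 0.91 ± 0.16 in WT (adjusted p = 0.00529). Its KO call was lost without KO IRI replicate 2 or KO control replicate 2 or 3 (adjusted p = 0.0821 to 0.103).

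ESCRT-III proteins shed damaged membrane and can delay both forms of lytic death. Of 13 tested genes of this list, 2 were called higher in KO and 5 in WT, with 0 lower in either and a median log2 fold change of 0.15 in KO and 0.46 in WT. Chmp2b rose by 0.54 ± 0.13 log2 units in KO (adjusted p = 0.0338) and 0.90 ± 0.13 in WT (adjusted p = 0.00248), and Pdcd6ip, which encodes the ESCRT adaptor ALIX, by 0.44 ± 0.12 in KO (adjusted p = 0.0484) and 0.64 ± 0.12 in WT (adjusted p = 0.00582). Chmp4b and Chmp4c rose in WT, by 0.78 ± 0.20 (adjusted p = 0.0222) and 0.66 ± 0.15 (adjusted p = 0.0153). The KO calls of Chmp2b (adjusted p = 0.0515 to 0.148) and Pdcd6ip (0.0581 to 0.221) were lost without any library but KO IRI replicate 1 and WT IRI replicates 2 and 3, and those in WT of Chmp4b (0.0597 to 0.0756) without any WT control and of Chmp4c (0.0529 to 0.0623) without WT control replicate 1 or 2. Of 11 tested interferon signal factors, which lie upstream of Zbp1 and Casp4 transcription, 1 was called higher in KO and 2 in WT, with 0 lower and a median log2 fold change of 0.33 in KO and 0.22 in WT. The interferon-γ receptor genes Ifngr2 (1.28 ± 0.22, adjusted p = 0.00482) and Ifngr1 (0.97 ± 0.15, adjusted p = 0.00359) rose in WT, and Irf9, a subunit of the interferon-stimulated transcription complex, rose by 0.60 ± 0.15 log2 units in KO (adjusted p = 0.0430). The Irf9 call was lost in 9 of the 12 fits that left out 1 library, the same 9 as for Chmp2b (0.0567 to 0.191). No gene of these 6 lists was called between KO and WT in control or injured kidneys, or in the interaction.

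Pgam5, Mefv, Txnip, Gbp3, Gsdma, Chmp1a and Irf8 had too few counts to be tested, and Gbp5, Hmgb1 and Chmp1b were not analysed here. The list counts moved with the libraries kept: leaving out 1 library at a time gave 1 to 12 calls for TNF receptor genes in WT and 0 to 7 in KO, 2 to 7 for ESCRT-III in WT and 0 to 4 in KO, and 3 to 5 for the inhibitors in WT and 1 to 3 in KO. With the Y-linked covariate 0 calls were left in WT in 5 lists and 1, Il1rn, among the inhibitors, and without the libraries with adrenal transcripts, a fit with 1 KO IRI library, 0 were left in KO in 5 lists and 1, Il1rn, among the inhibitors. With the compared groups fitted alone, the WT calls of Tnfaip3, Birc3, Panx1, Chmp4b and Chmp4c were lost (adjusted p = 0.0829 to 0.0982), as were those of Nlrp6 and Casp6 in WT and of Casp12, Pdcd6ip and Irf9 in KO.

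**Figure D5:**
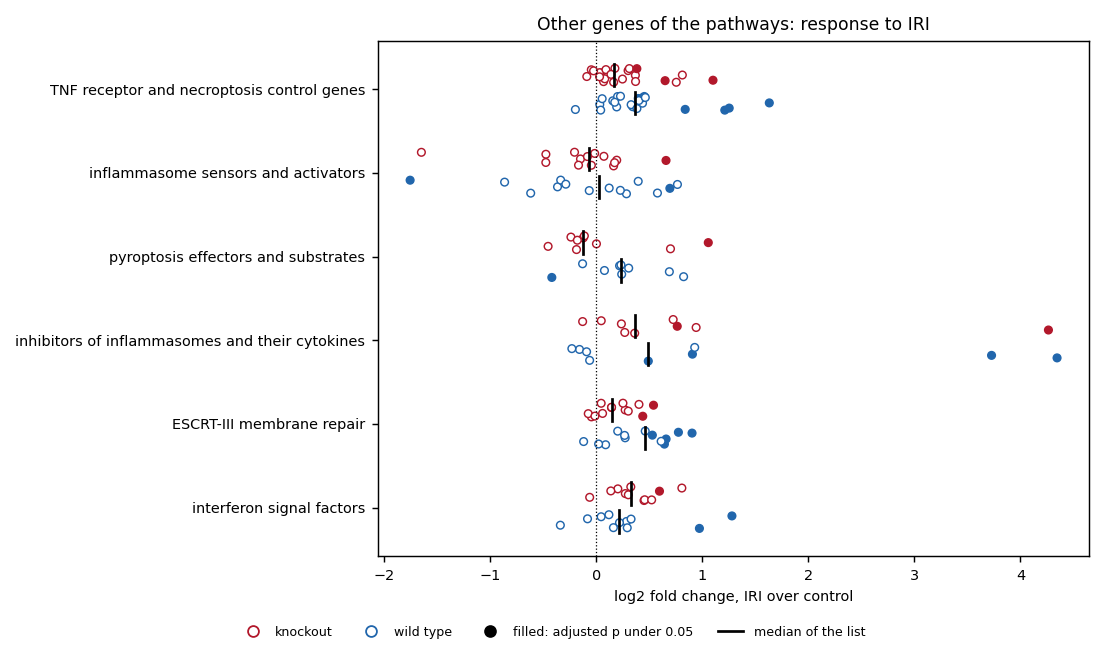
Log2 fold change of IRI over control for each tested gene of the 6 pathway lists, KO above WT, with called genes filled and the median of each list as a bar. Il1rn stands far to the right in both genotypes (4.26 in KO and 4.35 in WT), and Nlrp6 far to the left (-1.65 in KO and -1.75 in WT).

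The genes whose levels followed those of a member most closely were found among 13457 tested protein-coding genes, by the root mean square difference of log2 CPM about each gene's own mean over the 12 libraries. For Ripk3, whose own root mean square deviation was 0.66, they were Tagln2 (0.14), Tubb5 (0.16) and Arpc1b (0.16). For Mlkl, with a deviation of 0.81, they were Icam1 (0.16), Stat3 (0.16) and Sema6b (0.18). For Casp1, with 0.34, they were Cphx3 (0.18), Pdzd9 (0.20) and Tob1 (0.20), and for Gsdmd, with 0.22, they were Rabep2 (0.10), Prkra (0.10) and Rpusd1 (0.11). Members that vary little have small differences from many genes, so these values compare within a member and not between members.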

How the data were processed

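The authors deposited a table of raw counts per gene for 12 kidney libraries, 3 per group, with Ensembl IDs and symbols. RNA was depleted of ribosomal RNA and sequenced as paired ends from a directional kit, per the labels' protocols. STAR and mm10 are named in the submitters' processing notes; the counting tool and strand setting were not given in these sources. The labels do not tie replicates to separate animals, so a p-value reflects only how far these libraries spread, which may be technical.

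From the counts, all 12 libraries were fitted in R 4.3.3 with edgeR 4.0.16 (quasi-likelihood, TMM scaling, a coefficient per group, filterByExpr with a minimum count of 10 and total of 15), giving 19218 tested genes and 5 comparisons. A gene was called at a Benjamini-Hochberg adjusted p under 0.05 over all tested genes; SEs are of log2 fold changes, intervals are 95%. The procedure was tested on simulated data. In these data 99 genes changed 2-fold and 98 changed 4-fold, of 19026. That is far fewer than the 4320 genes called for IRI in WT, so recovery in the real WT test may differ. False calls were 0 for IRI in WT and 6 for the interaction. For IRI in WT it recovered 33.3% of 2-fold and 80.6% of 4-fold changes. For the interaction it recovered 7.07% of 2-fold and 55.1% of 4-fold changes, so a missing call there says little about smaller differences. Alternatives used limma 3.58.1 (voom), DESeq2 1.42.0, RLE or no scaling, other filters, the compared groups alone, a replicate block, each library left out, the Y-linked level as covariate, and 2 libraries with adrenal transcripts left out. Named were all 10 members and, per pathway list, up to 3 called genes per direction with the largest change after IRI in each genotype, Ybx3 and Havcr1 as checks, and the 3 genes nearest in pattern to Ripk3, Mlkl, Casp1 and Gsdmd; Hist4h4, Pdcd6ip in WT, Fadd, Cflar, Il1b and Il18 were added after their values were seen. Members and lists were chosen with earlier results of these data known; 1 gene of the pathway lists is not reported here. Gene models are GENCODE M21 on GRCm38. No replicate pair agreed within sampling noise.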

Additional observations from a re-analysis of the deposited data

How the results depend on the processing

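Of 1085 member values under 22 alternative fits, 1051 kept their side of the threshold, 26 lost and 8 gained a call, and 0 called values reversed. Among the 1051, 40 estimates called in neither fit changed sign. The number of members called after IRI, 2 in KO and 3 in WT, was in KO 1 with limma-voom, RLE scaling, no filter, a minimum of 1 CPM in 3 libraries, the replicate block and the Y-linked covariate, 4 with the compared groups alone and 0 without the adrenal libraries, and in WT 0 with the Y-linked covariate. Genes called in KO (1215) were 2494 with DESeq2, 469 with the replicate block and 44 without the adrenal libraries; in WT (4320) they were 1232 with the compared groups alone, 2730 with the replicate block and 306 with the Y-linked covariate. Genes called between KO and WT controls (2) were 72 with DESeq2, 1 with the filter of 1 CPM, 5 with the compared groups alone and 1 without the adrenal libraries. Between KO and WT after IRI (2) they were 117 with DESeq2, 0 with the compared groups alone, 0 with the replicate block, 0 without the adrenal libraries and 4 with the Y-linked covariate. The interaction (0) had 32 with DESeq2. Leaving out each library in turn gave 178 to 2889 genes and 0 to 5 members in KO, 1570 to 7129 genes and 3 to 5 members in WT, 0 to 129 genes and 0 members between control genotypes, 0 to 876 genes and 0 to 1 member between injured genotypes, and 0 to 25 genes and 0 members for the interaction. The causes of these moves were not tested. Same-numbered libraries did not deviate together (18 pairs, correlation -0.42 to 0.08, 0 over 0.1), so the replicate block is given here only; it ended the Mlkl call in KO (adjusted p = 0.104) and no other member's call. Casp1 had the fewest counts of the members, 18 to 52 per library. The fit without the adrenal libraries keeps 1 KO IRI library, so its lost calls go with fewer replicates.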
